A study of Mus musculus with 16 samples.

Results

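The miR-34 family of mouse bone marrow-derived dendritic cells was followed through its 6 mature arms, the 5p and 3p products of the miR-34a, miR-34b and miR-34c hairpins. They were taken by name from a count table of mature miRNAs, as 6 of the 1372 names kept, and all 6 passed the low-count filter that left 568 miRNAs for testing. The table held 16 small RNA libraries in 4 groups of 4. The cells were grown from flushed tibiae and femurs of male C57BL/6 mice, titled WT in all 16 samples, after red cell lysis. In the first group, quercetin (a plant flavonol, given here as the aglycone) was added at 25 µM on days 5 and 7 and lipopolysaccharide (LPS, the bacterial TLR4 ligand that matures dendritic cells) at 1 µg/mL for 6 h on day 8. The second group had quercetin alone on the same days, the third LPS alone on the same day, and the control group had neither. The labels give an age of 8 weeks for library numbers 1 to 3 of each group and 7 weeks for number 4, and the label of LPS 2 leaves out the sex. The comparisons ask what quercetin does to these miRNAs in resting and in LPS-stimulated cells, and what LPS does with and without quercetin.

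The miR-34 genes are among the best known direct transcriptional targets of the tumour suppressor p53. Their 5p arms load into Argonaute and repress mRNAs of cell cycle entry and survival, such as those of Cdk6, Met and Bcl2. Mir34a is transcribed from its own locus in many tissues, whereas Mir34b and Mir34c lie on a shared transcript that is most abundant in testis and in multiciliated epithelia. In human monocyte-derived dendritic cells, miR-34a has been linked to differentiation. No p53 protein or mRNA was measured in these libraries.

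The mature sequences are shown because the family is defined by its seed, bases 2 to 8, in capitals; they come from RefSeq on GRCm38.p6, where 5 of the 6 members matched an entry. The build named in the submitters' processing notes is mm9, so the coordinates below belong to the RefSeq build and not to the counts. The 5p arms share the seed GGCAGUG, and the miR-449 arms carry it as well.
miR-34a-5p: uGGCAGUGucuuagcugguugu
miR-34b-5p: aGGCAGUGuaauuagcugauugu
miR-449a-5p: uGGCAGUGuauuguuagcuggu
miR-449c-5p: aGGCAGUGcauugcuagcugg
miR-34a-3p: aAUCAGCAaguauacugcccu
miR-34b-3p: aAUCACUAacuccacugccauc
miR-34c-3p: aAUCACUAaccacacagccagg
Of 1679 mature entries in the RefSeq table, the first 4 printed hold GGCAGUG at bases 2 to 8. The 3p arms of miR-34b and miR-34c share AUCACUA with no other entry, and miR-34a-3p has a seed that it shares with none. Aligned from the 5′ end, miR-34b-3p and miR-34c-3p were identical at 17 of 22 bases, and miR-34a-5p and miR-449a-5p at 15 of 22. For miR-34a-5p and miR-34b-5p the best ungapped alignment had 12 of 22, at a shift of a base that puts their shared seeds out of register. The miR-34b-5p sequence matched a stretch of the Mir34c hairpin at 21 of 23 bases, so a read could be counted for either 5p arm, and how the authors' counting split such reads is not given in the sources used here.

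On GRCm38, the Mir34a hairpin lies at chr4:150068454-150068555 on the plus strand, within an exon of Gm37795, a same-strand transcript of unresolved type in GENCODE. Mir34c at chr9:51103034-51103110 and Mir34b at chr9:51103562-51103645 lie on the minus strand with 451 bases between them, in an intron of Btg4, which runs on the opposite strand. Mir449c and Mir449a lie on chromosome 13, in an intron of Cdc20b on the same strand. The members therefore come from 2 loci, and the miR-34b and miR-34c arms are not independent of each other.

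Library totals lay between 6459654 and 13949915 counts, and were lower on average with quercetin: 6459654 to 9041030 in quercetin plus LPS, 7698774 to 8572734 in quercetin, 10105690 to 13949915 in LPS and 8668512 to 12535228 in control. Levels are given as CPM, read counts brought to a common library size (TMM-scaled) and written per 1e+06 counts. All 6 myeloid-enriched miRNAs of a marker list (among them miR-223-3p and miR-155-5p) were counted in every library, and none of the 6 passed edgeR, DESeq2 or limma-voom in any comparison, with 1 at an unadjusted p under 0.05 in quercetin plus LPS against quercetin. No miRNA of that list separates dendritic cells from other myeloid cells. Markers of other cells did move with the groups. As background, 6.87% of all 568 miRNAs were called higher and 8.98% lower in quercetin against control. These shares were 8.63% and 14.3% in quercetin plus LPS against LPS. All 5 erythroid miRNAs, of which miR-486a-5p and miR-486b-5p have identical counts, rose with quercetin in both comparisons, and their summed level was 2342.5 to 5842.1 CPM in quercetin plus LPS and 5041.3 to 13116 CPM in quercetin, against 864.79 to 2796.5 CPM in LPS and 774.87 to 1768.6 CPM in control. Of 7 stromal miRNAs tested, of which miR-199a-3p and miR-199b-3p have identical counts, 5 rose in quercetin plus LPS against LPS and none passed the test in quercetin against control, where none had an unadjusted p under 0.05 in edgeR and none was called by DESeq2 or limma-voom. In LPS against control none of the 7 passed these 3 tools and 4 had an unadjusted p under 0.05, with a median log2 fold change of -1.97. The stromal sum was 124.76 to 4593.6 CPM in quercetin plus LPS and 108.87 to 1283.4 CPM in quercetin, against 41.864 to 90.789 CPM in LPS and 32.098 to 542.87 CPM in control. Of 9 epithelial miRNAs tested, miR-449c-5p fell in both quercetin comparisons and miR-203-3p rose in quercetin plus LPS against LPS; the epithelial sum was 280.9 to 635.4 CPM in quercetin plus LPS and 230.27 to 332.02 CPM in quercetin, against 252.38 to 309.99 CPM in LPS and 213.21 to 316.88 CPM in control. Of that list, miR-449b was at 0 in all libraries but LPS 2. Neither of 2 lymphocyte miRNAs passed edgeR, DESeq2 or limma-voom or had an unadjusted p under 0.05. The part that other cells play in the results on miR-34 was not tested, and in bulk libraries fewer cells of a type and less RNA per cell cannot be told apart. On the second principal component, which held 22% of the variance, quercetin plus LPS 4, quercetin 4, LPS 4 and control 3 stood highest within their groups.

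With quercetin, 3 of the 4 arms made from the miR-34b/c locus fell, with and without LPS, and the miR-34a arms did not pass the test in either setting. In quercetin against control, 3 of the 6 members fell: mmu-miR-34b-3p, mmu-miR-34c-5p and mmu-miR-34c-3p, to a mean level of 0.475 to 0.544 times that in control. Of all 568 miRNAs, 15.8% were called in that comparison, and 8.98% were called lower. The same 3 members fell in quercetin plus LPS against LPS, against a background of 22.9% called and 14.3% called lower. At an unadjusted p under 0.05, miR-34b-5p joined them in quercetin against control and miR-34a-3p in quercetin plus LPS against LPS, where 27.3% and 37.5% of all miRNAs had one. The median log2 fold change of the 6 members was -0.93 in quercetin against control, where that of all miRNAs was -0.05, and -0.74 in quercetin plus LPS against LPS, where that of all miRNAs was -0.13.

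**Figure D1:**
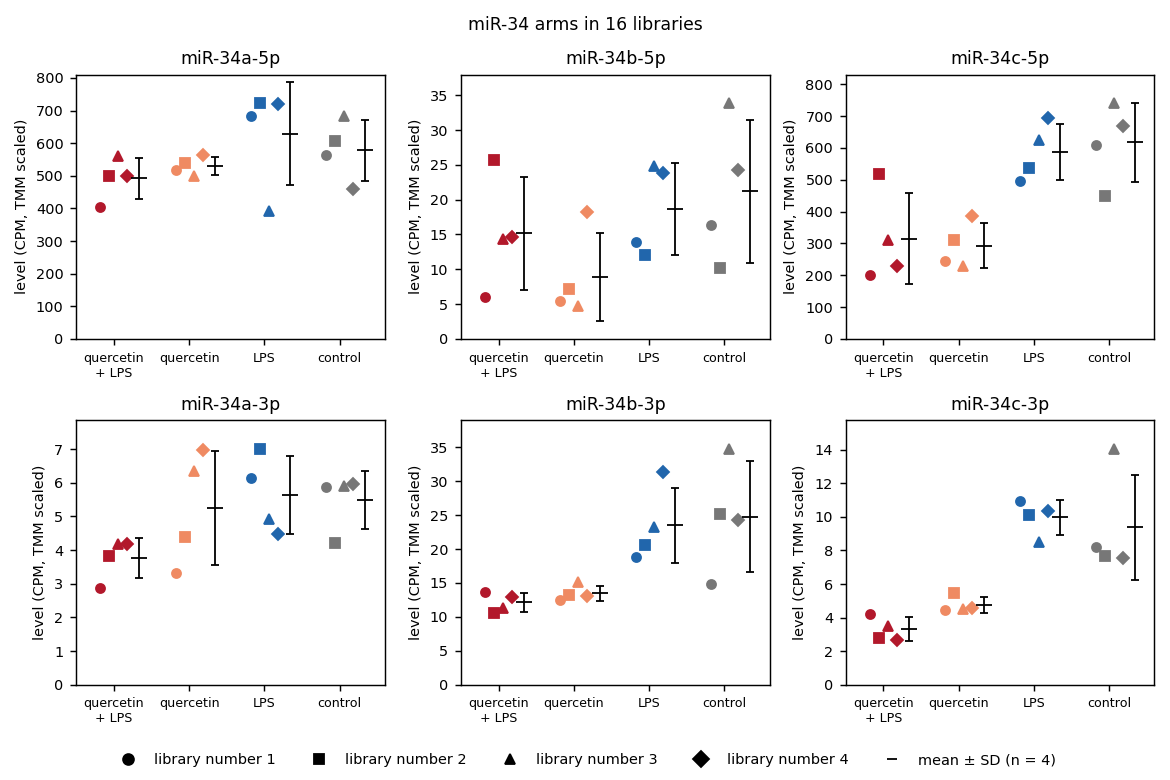
Level of each miR-34 arm (CPM after TMM scaling, linear axes from 0) in every library, by group, with the group mean ± SD (n = 4) beside the points; marker shapes give the library number. miR-34c-3p reached 5.44 CPM at most in the 8 quercetin-treated libraries and was at least 7.53 CPM in the 8 others, while the miR-34a-5p groups overlapped.

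mmu-miR-34c-5p, the arm taken as the functional strand of Mir34c, had 246, 310, 230 and 386 CPM in quercetin libraries 1 to 4, against 609, 449, 741 and 668 CPM in control libraries 1 to 4. The groups did not overlap. The log2 fold change was -1.07 ± 0.29 (SE), with an adjusted p of 0.0191 by edgeR's quasi-likelihood test. With LPS, its level was 202, 517, 310 and 228 CPM in quercetin plus LPS, against 496, 536, 625 and 694 CPM in LPS. Quercetin plus LPS 2 lay inside the range of the LPS libraries, and the other 3 lay under it. That library also had the highest stromal sum, 4593.6 CPM, and the highest miR-34b-5p level of its group. The log2 fold change in this comparison was -0.90 ± 0.29 (edgeR adjusted p = 0.0342). Means were 314 ± 143 CPM in quercetin plus LPS, 293 ± 71.1 CPM in quercetin, 588 ± 88.7 CPM in LPS and 617 ± 125 CPM in control (SD, n = 4 each). Sorted by mean, the 2 groups with quercetin differed by less than either SD, as did the 2 without, and the step between these pairs was larger than any SD.

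mmu-miR-34c-3p, the partner strand, was counted at 20 to 52 reads in each quercetin-treated library and 75 to 130 in each of the others. Its level was 4.43, 5.44, 4.54 and 4.56 CPM in quercetin, against 8.20, 7.70, 14.1 and 7.53 CPM in control. It was 4.22, 2.79, 3.51 and 2.69 CPM in quercetin plus LPS, against 10.96, 10.1, 8.48 and 10.3 CPM in LPS. Neither pair of groups overlapped, and control 3 stood apart at the high end of its group. The log2 fold changes were -0.98 ± 0.25 for quercetin against control (edgeR adjusted p = 0.0155) and -1.59 ± 0.25 for quercetin plus LPS against LPS (edgeR adjusted p = 3.5e-04). Among the members, the second of these was the largest change. Sorted by mean, quercetin plus LPS stood lowest at 3.30 ± 0.714 CPM, then quercetin at 4.74 ± 0.470 CPM, each step up to control being larger than the SDs of the groups it joined, with LPS at 9.98 ± 1.06 CPM and control at 9.37 ± 3.14 CPM (SD, n = 4 each) differing by less than either SD.

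mmu-miR-34b-3p had 12.4, 13.3, 15.1 and 13.1 CPM in quercetin, against 14.8, 25.2, 34.8 and 24.3 CPM in control. Control 1 lay inside the quercetin range, and the other 3 control libraries lay above it. With LPS it had 13.7, 10.6, 11.3 and 12.9 CPM in quercetin plus LPS, against 18.9, 20.6, 23.2 and 31.4 CPM in LPS, and these groups did not overlap. Means were 12.1 ± 1.43 CPM in quercetin plus LPS, 13.5 ± 1.14 CPM in quercetin, 23.5 ± 5.53 CPM in LPS and 24.8 ± 8.15 CPM in control (SD, n = 4 each); the step between the first pair and the second exceeded every SD, and the steps within each pair did not exceed the larger SD. The log2 fold changes were -0.88 ± 0.25 (edgeR adjusted p = 0.0221) and -0.95 ± 0.25 (edgeR adjusted p = 0.0124).

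mmu-miR-34b-5p did not pass the test in either comparison, and it varied most among libraries. It had 5.41, 7.12, 4.77 and 18.2 CPM in quercetin, against 16.3, 10.2, 33.9 and 24.3 CPM in control, and 5.97, 25.7, 14.3 and 14.7 CPM in quercetin plus LPS, against 13.9, 12.1, 24.8 and 23.9 CPM in LPS. Both pairs of groups overlapped, and the means of 15.2 ± 8.08, 8.89 ± 6.32, 18.7 ± 6.62 and 21.2 ± 10.3 CPM in quercetin plus LPS, quercetin, LPS and control (SD, n = 4 each) had neighbours within the larger SD when sorted. The log2 fold change for quercetin against control was -1.25 ± 0.50 (edgeR adjusted p = 0.107), and without quercetin 4, the high library of its group, it was -1.83 with an adjusted p of 0.0252. For quercetin plus LPS against LPS it was -0.30 ± 0.49 (edgeR adjusted p = 0.726).

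mmu-miR-34a-5p, the most abundant member with quercetin, had 517, 538, 501 and 563 CPM in quercetin, against 563, 608, 683 and 460 CPM in control. It had 405, 500, 561 and 500 CPM in quercetin plus LPS, against 683, 723, 392 and 719 CPM in LPS. Both pairs overlapped, in the LPS-stimulated pair through the low value of LPS 3. The log2 fold change was -0.13 ± 0.21 for quercetin against control (edgeR adjusted p = 0.749), with the sign turned to 0.08 under upper quartile scaling and to 0.0014 with library size alone. It was -0.36 ± 0.21 for quercetin plus LPS against LPS (edgeR adjusted p = 0.245). Means were 492 ± 64.3 CPM in quercetin plus LPS, 530 ± 26.9 CPM in quercetin, 629 ± 159 CPM in LPS and 578 ± 93.4 CPM in control (SD, n = 4 each), and when sorted by mean, neighbours differed by less than the larger of their SDs.

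mmu-miR-34a-3p was the faintest member in control, at 27 to 76 reads a library over all groups. It had 3.32, 4.40, 6.35 and 6.96 CPM in quercetin, against 5.88, 4.21, 5.90 and 5.97 CPM in control. Means were 3.76 ± 0.608, 5.26 ± 1.69, 5.64 ± 1.16 and 5.49 ± 0.856 CPM in quercetin plus LPS, quercetin, LPS and control (SD, n = 4 each), with sorted neighbours within the larger SD. The log2 fold change for quercetin against control was -0.06 ± 0.27 (edgeR adjusted p = 0.895), which became 0.13 under upper quartile scaling and 0.03 with library size alone. With LPS it had 2.88, 3.83, 4.17 and 4.17 CPM in quercetin plus LPS, against 6.15, 7.01, 4.92 and 4.48 CPM in LPS. These groups did not overlap, yet the log2 fold change of -0.59 ± 0.27 missed the threshold (edgeR adjusted p = 0.13). In all, the groups did not overlap for 2 of the 6 members in quercetin against control, where 21.5% of all miRNAs had groups that did not overlap, and for 3 of 6 in quercetin plus LPS against LPS, where 20.2% had.

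Apart from miR-34c-3p in quercetin plus LPS against LPS, each of these calls was lost when certain single libraries were left out. Leaving out a library also moved the median log2 fold change of all miRNAs. For quercetin plus LPS against LPS this median was -0.13 with all libraries and between -0.06 and 0.08 without a library. For quercetin against control it was -0.05, and between -0.08 and 0.01. The part of this shift in the lost calls was not tested. In quercetin against control, miR-34c-5p missed the threshold without quercetin 1, quercetin 3 or control 3 (edgeR adjusted p = 0.0555, 0.0711 and 0.0527), and miR-34c-3p without quercetin 3, quercetin 4 or control 3 (0.0586, 0.0543 and 0.0789). miR-34b-3p missed it there without quercetin 1, quercetin 3, quercetin 4, control 2 or control 3 (0.0576, 0.0530, 0.0635, 0.0515 and 0.0931). In quercetin plus LPS against LPS, miR-34c-3p kept its call in all 8 fits that left out a library, with adjusted p between 7.9e-04 and 0.00668. There, miR-34b-3p missed the threshold without quercetin plus LPS 2, 3 or 4 or LPS 4 (0.0850, 0.0515, 0.0627 and 0.0917). miR-34c-5p missed it without quercetin plus LPS 1, 3 or 4 (0.178, 0.0778 and 0.202) or any LPS library (0.0924, 0.105, 0.108 and 0.140), with log2 fold changes between -0.82 and -0.56. Without the library that stood highest on the second component in each group, a set chosen after seeing the data, log2 fold changes of quercetin against control were -0.66 for miR-34b-3p, -1.14 for miR-34c-5p and -0.70 for miR-34c-3p, and none of these passed (edgeR adjusted p = 0.132, 0.05004 and 0.108). For quercetin plus LPS against LPS they were -0.81, -0.69 and -1.48, and miR-34c-3p passed (edgeR adjusted p = 0.0502, 0.168 and 0.00299). Within the libraries labelled 8 weeks old (numbers 1 to 3), quercetin against control gave -0.87 for miR-34b-3p, -1.19 for miR-34c-5p and -1.05 for miR-34c-3p (edgeR adjusted p = 0.0905, 0.0487 and 0.0582), and quercetin plus LPS against LPS gave -0.82, -0.69 and -1.49 (0.0939, 0.193 and 0.0121); the 7-week age has 1 library a group and gives no test of its own.

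**Figure D2:**
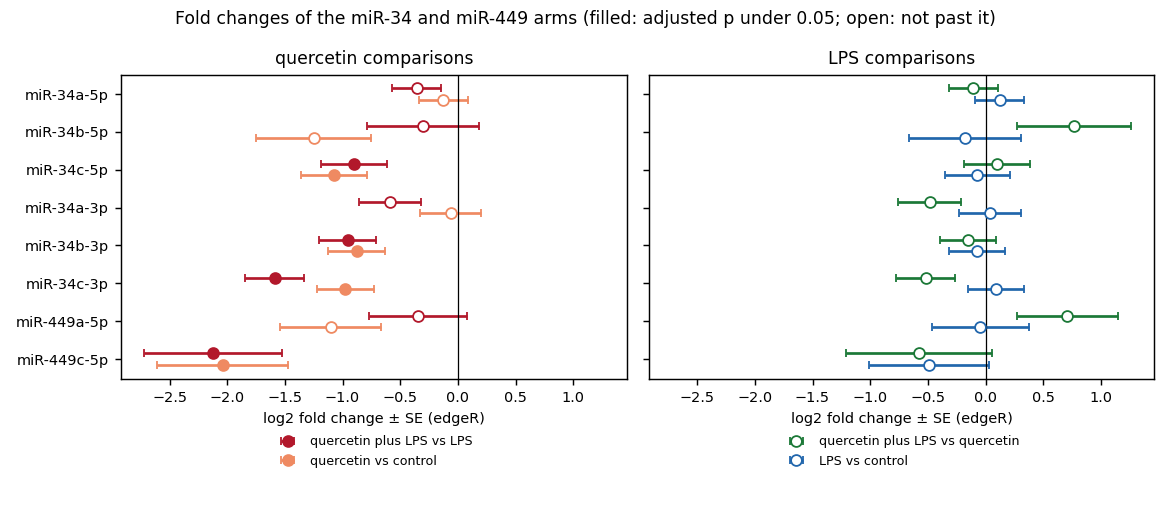
log2 fold change from edgeR, ± the SE derived from its F statistic, for the 6 miR-34 arms and the 2 tested miR-449 arms. Quercetin comparisons stand left, LPS comparisons right, and filled points passed an adjusted p of 0.05. miR-34c-5p, miR-34b-3p, miR-34c-3p and miR-449c-5p are filled on the left, between -0.88 and -2.12, and no point is filled on the right.

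The scaling moved all fold changes together and decided several calls. Upper quartile scaling put the median of all miRNAs at 0.15 in quercetin against control and 0.14 in quercetin plus LPS against LPS, against -0.05 and -0.13 with TMM. With it, none of the 3 members passed in quercetin against control (edgeR adjusted p = 0.0687 for miR-34c-5p, 0.0753 for miR-34c-3p and 0.133 for miR-34b-3p), and with library size alone miR-34c-3p did (0.0559, 0.0343 and 0.0527). In quercetin plus LPS against LPS, miR-34c-3p passed under both scalings (0.00422 and 0.00275), whereas miR-34c-5p (0.106 and 0.187) and miR-34b-3p (0.0933 and 0.0518) did not. With DESeq2 size factors in edgeR, miR-34c-5p missed the threshold there as well (edgeR adjusted p = 0.0623), and miR-34b-3p and miR-34c-3p passed (0.0256 and 0.00101). All 3 members passed with these factors in quercetin against control. A change of scaling shifts all miRNAs nearly alike, so log2 fold changes relative to the median stayed close by construction, at -1.03 with TMM and -1.02 with upper quartile scaling for miR-34c-5p in quercetin against control.

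LPS did not change any member past the threshold. In LPS against control, 0 of 6 members passed edgeR's test, none had an unadjusted p under 0.05, and neither DESeq2 nor limma-voom called any; 0.528% of all miRNAs were called and 4.58% had an unadjusted p under 0.05. The log2 fold changes lay between -0.18 ± 0.49 for miR-34b-5p and 0.12 ± 0.21 for miR-34a-5p, and the groups overlapped for all 6, as they did for all but 3.17% of miRNAs. In quercetin plus LPS against quercetin, 0 of 6 passed under the same 3 tools, none had an unadjusted p under 0.05, and 0.352% of all miRNAs were called, with 7.22% at an unadjusted p under 0.05. miR-34c-3p was lower in quercetin plus LPS, at 2.69 to 4.22 CPM, than in quercetin, at 4.43 to 5.44 CPM, with no overlap, as 3.7% of all miRNAs had none. Its log2 fold change was -0.52 ± 0.25 (edgeR adjusted p = 0.664).

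The effect of quercetin was not shown to differ between resting and LPS-stimulated cells for any member. The difference of the 2 log2 fold changes was largest for miR-34b-5p, 0.95 ± 0.69, and for miR-34c-3p, -0.61 ± 0.35 (edgeR adjusted p = 0.893 for each). None of the 6 had an unadjusted p under 0.05, none was called by DESeq2 or limma-voom, and 0% of all 568 miRNAs were called by edgeR, with 26 (4.58%) at an unadjusted p under 0.05. The comparisons of LPS and of quercetin with control share the control libraries, so their values are given side by side only.

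In the pool of reads with the family's 5p seed, miR-34a-5p held a larger mean share with quercetin and miR-34c-5p a smaller one. Of all reads carrying GGCAGUG at bases 2 to 8 (miR-34a-5p, miR-34b-5p, miR-34c-5p and the 5p arms of miR-449, with miR-34c-5p placed among them as the known member of the family), miR-34a-5p made up 60.7% ± 8.87 in quercetin plus LPS, 63.8% ± 4.57 in quercetin, 50.0% ± 9.03 in LPS and 47.3% ± 6.85 in control (SD, n = 4 each). The share of miR-34c-5p was 36.8% ± 8.46, 34.7% ± 3.99, 47.6% ± 8.53 and 50.1% ± 6.56 in the same groups. miR-34b-5p never exceeded 2.44% of the family. The summed level was 827 ± 186 CPM in quercetin plus LPS, 836 ± 105 CPM in quercetin, 1246 ± 167 CPM in LPS and 1228 ± 169 CPM in control. How well each sequence was captured in library preparation was not measured, so shares between arms are shares of reads.

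Within each library, the ratio of miR-34c-5p to miR-34a-5p reads needs no scaling between libraries. It was 0.476, 0.576, 0.459 and 0.686 in quercetin libraries 1 to 4, against 1.08, 0.738, 1.08 and 1.45 in control libraries 1 to 4, with no overlap. The difference of mean log2 ratios was -0.97 ± 0.24 (SE), and all 4 quercetin libraries lay below all 4 control libraries; the two-sided exact permutation p of 0.0286 is the smallest that 4 against 4 can give, and adjusted over the 12 comparisons of ratios between hairpins it was 0.171. The ratio in quercetin plus LPS was 0.498, 1.03, 0.552 and 0.457, against 0.727, 0.740, 1.59 and 0.965 in LPS. Quercetin plus LPS 2 lay inside the LPS range, and the difference of -0.67 ± 0.38 had an exact permutation p of 0.143, adjusted 0.286. These ratios between hairpins were chosen after the values were seen.

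The ratio of the 3p arms of miR-34b and miR-34c differed without overlap in the LPS-stimulated pair of groups and overlapped in the resting pair. miR-34b-3p had 2.84 ± 0.356 reads for each read of miR-34c-3p in quercetin and 2.69 ± 0.688 in control (SD, n = 4 each), a difference of 0.11 ± 0.22 on the log2 scale (exact permutation p = 0.686, adjusted 0.810). With LPS it had 3.71 ± 0.711 in quercetin plus LPS and 2.38 ± 0.603 in LPS, a difference of 0.66 ± 0.23 with no overlap. The exact permutation p was again 0.0286, adjusted 0.171.

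**Figure D3:**
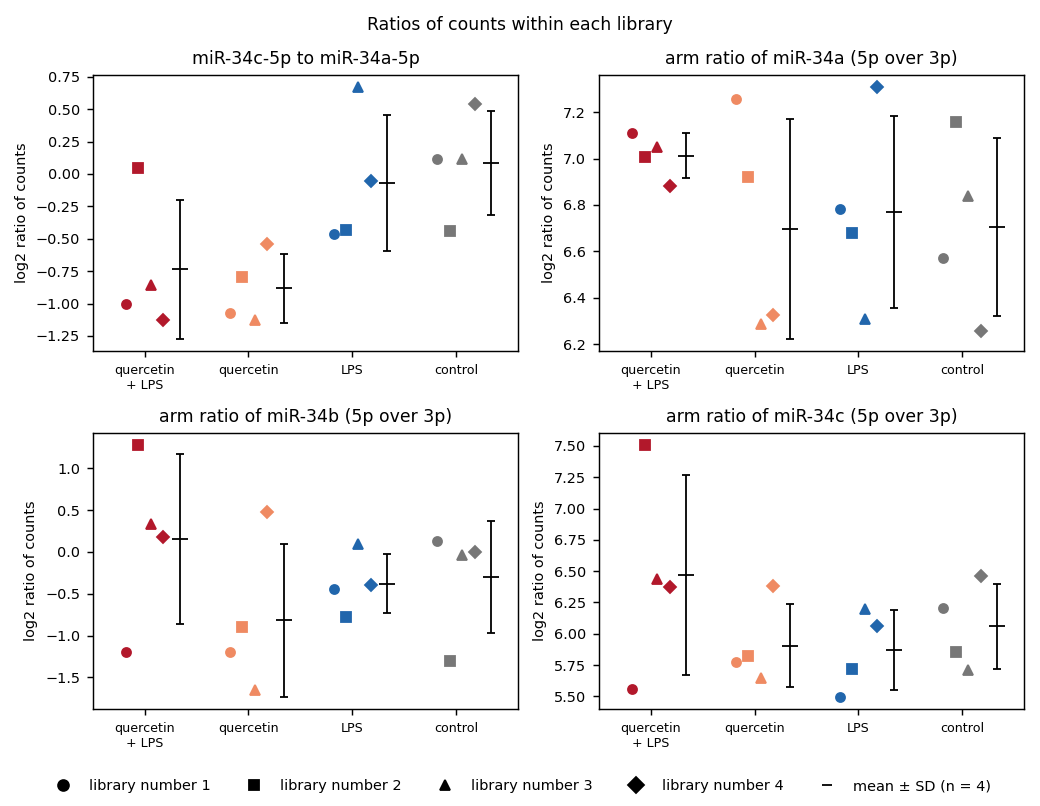
log2 ratio of read counts within each library, by group, with mean ± SD (n = 4); the first panel sets miR-34c-5p against miR-34a-5p, and the others set the 5p arm against the 3p arm of a hairpin. In the first panel the quercetin libraries sit between -1.12 and -0.54, all below the control libraries, at -0.44 to 0.54.

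The 5p arm held nearly all reads of miR-34a and miR-34c in every group, and about as many as the 3p arm for miR-34b. The 5p arm made up 99.2% ± 0.0517 of miR-34a reads in quercetin plus LPS, 99.0% ± 0.305 in quercetin, 99.1% ± 0.254 in LPS and 99.0% ± 0.254 in control (SD, n = 4 each). For miR-34c it made up 98.8% ± 0.624, 98.4% ± 0.334, 98.3% ± 0.373 and 98.5% ± 0.339 in the same groups. For miR-34b it made up 52.6% ± 16.7 in quercetin plus LPS, 36.9% ± 14.9 in quercetin, 43.6% ± 6.09 in LPS and 45.1% ± 10.97 in control. Over 3 hairpins and 4 comparisons, no arm ratio passed the test: the smallest exact permutation p was 0.171, for miR-34c in quercetin plus LPS against LPS, and the smallest adjusted p was 0.643. The largest difference of mean log2 arm ratios was 0.97 ± 0.68, for miR-34b in quercetin plus LPS against quercetin, so a change of that size could not be told from the spread.

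By Pearson's r, same-side arms of miR-34b and miR-34c varied together more closely than the 2 arms of a hairpin did. Over the 16 libraries, which fall in 4 groups and share the scaling, Pearson's r of log2 CPM was 0.82 between miR-34b-5p and miR-34c-5p and 0.86 between miR-34b-3p and miR-34c-3p, against 0.74 for the arms of miR-34c, 0.46 for those of miR-34b and 0.43 for those of miR-34a. By Spearman's rho over the same libraries, the 3p pair was again highest at 0.84. The 5p pair, at 0.753, did not exceed the arms of miR-34c, at 0.759. After group means were subtracted, Pearson's r was 0.88 for the 5p pair and 0.44 for the 3p pair, against -0.02 for the arms of miR-34c, 0.155 for those of miR-34b and 0.25 for those of miR-34a. The 5p pair is also the pair for which the miR-34b-5p sequence matched the other hairpin at 21 of 23 bases. Whether reads were shared between them was not tested.

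**Figure D4:**
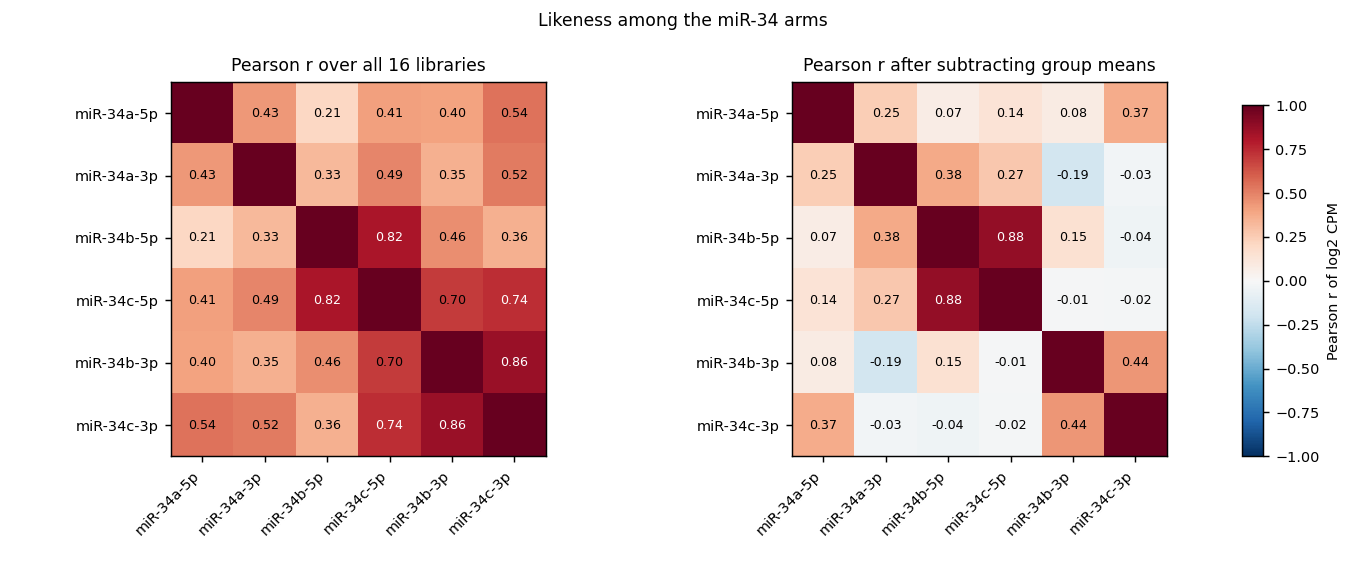
Pearson's r of log2 CPM between the 6 miR-34 arms over 16 libraries (left) and after subtracting each group's mean (right); colour runs from -1 (blue) to 1 (red). The 5p arms of miR-34b and miR-34c reach 0.82 and 0.88, while the arms of miR-34c drop to -0.02 on the right.

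The miR-449 arms carry the family's 5p seed and are known from multiciliated epithelia. miR-449c-5p was rare, with 1 to 19 reads in each quercetin-treated library and 14 to 70 in the others. It had 0.738, 1.99, 0.908 and 0.720 CPM in quercetin, against 5.41, 5.75, 1.76 and 5.19 CPM in control, where control 3 overlapped quercetin 2. It had 0.103, 1.05, 1.56 and 0.269 CPM in quercetin plus LPS, against 3.03, 4.19, 3.96 and 1.72 CPM in LPS, with no overlap. The log2 fold changes were -2.04 ± 0.57 (edgeR adjusted p = 0.0220) and -2.12 ± 0.60 (edgeR adjusted p = 0.0191). Leaving out a library ended the call in 5 of 8 fits in each comparison: without quercetin 1, 3 or 4 or control 1 or 2 (edgeR adjusted p = 0.0668, 0.0735, 0.0705, 0.0544 and 0.0590), and without quercetin plus LPS 1 or 4 or LPS 1, 2 or 3 (0.0654, 0.0754, 0.0554, 0.0707 and 0.0536). miR-449a-5p was lower in every quercetin library, at 1.70 to 4.20 CPM, than in any control library, at 4.41 to 10.4 CPM, yet missed the threshold (log2 fold change -1.10 ± 0.44, edgeR adjusted p = 0.107). With LPS it had 3.64 to 7.53 CPM in quercetin plus LPS, against 2.46 to 11.4 CPM in LPS (-0.35 ± 0.43, edgeR adjusted p = 0.620). miR-449b had 1 read in all, in LPS 2.

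No other miRNA on a p53-linked list was called lower with quercetin, and miR-215-5p rose. Of 20 names on the list, 17 were tested. In quercetin against control 2 of them rose and none fell, and in quercetin plus LPS against LPS 6 rose and none fell, against 6.87% and 8.63% of all miRNAs called higher. The list's median log2 fold changes were 0.24 and 0.22; 3 and 6 of the 17 had an unadjusted p under 0.05, DESeq2 called 3 and 7, and limma-voom 2 and 6. miR-215-5p, known from human cells as a p53-induced miRNA of the miR-192 seed family, had 32.7 to 66.4 CPM in quercetin, against 6.84 to 10.1 CPM in control, and 46.3 to 88.5 CPM in quercetin plus LPS, against 5.56 to 9.08 CPM in LPS. Its log2 fold changes were 2.66 ± 0.28 (edgeR adjusted p = 7.9e-06) and 3.19 ± 0.28 (edgeR adjusted p = 1.2e-06), and neither pair of groups overlapped. miR-215-3p rose as well, by 2.77 ± 0.77 and 2.18 ± 0.70 (edgeR adjusted p = 0.0220 and 0.0354), on 6 to 13 reads a library in quercetin, against 0 to 4 in control, and 5 to 16 in quercetin plus LPS, against 1 to 5 in LPS.

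The other 4 p53-linked miRNAs that rose did so in quercetin plus LPS against LPS. miR-194-5p, processed with miR-215 or miR-192 from shared transcripts, had a log2 fold change of 0.62 ± 0.21 there (edgeR adjusted p = 0.0440) and of 0.19 ± 0.21 in quercetin against control (edgeR adjusted p = 0.592). miR-143-3p, miR-145a-5p and miR-145a-3p had 5.00 ± 1.34, 4.14 ± 1.08 and 2.78 ± 0.61 (edgeR adjusted p = 0.0147, 0.0127 and 0.00483). These 3 also stand on the stromal list, whose sum was highest in quercetin plus LPS 2. miR-192-5p, miR-107-3p, miR-103-3p, miR-15a-5p, miR-16-5p, miR-22-3p, miR-22-5p, miR-192-3p, miR-141-3p, miR-200c-3p and miR-149-5p passed in no comparison. Their log2 fold changes in quercetin against control lay between -0.58 ± 0.32 for miR-200c-3p and 1.02 ± 0.37 for miR-149-5p (edgeR adjusted p = 0.250 and 0.0776). In both LPS comparisons none of the 17 passed edgeR, DESeq2 or limma-voom, and none had an unadjusted p under 0.05.

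Among 543 other tested miRNAs, with 1 name kept for each set of identical counts, the 3 most like each member over the 16 libraries were taken by Pearson's r of log2 CPM. miR-34b-3p was closest to miR-132-3p (r = 0.94), miR-28a-5p and miR-181b-5p, and miR-34c-3p to miR-664-5p (r = 0.93), miR-132-3p and miR-342-3p. miR-34c-5p was closest to miR-138-5p (r = 0.89), miR-181b-1-3p and miR-6539, and miR-34b-5p to miR-16-1-3p (r = 0.91), miR-18b-5p and miR-297a-5p. The miR-34a arms had lower r, with miR-24-3p (r = 0.73), miR-3084-3p and miR-184-3p for the 5p arm and miR-7676-5p (r = 0.81), miR-1191b-5p and miR-378a-5p for the 3p arm. Of those near miR-34b-3p and miR-34c, miR-132-3p had a log2 fold change of -1.85 ± 0.26 in quercetin against control and -2.02 ± 0.26 in quercetin plus LPS against LPS (edgeR adjusted p = 1.2e-04 and 4.6e-05). The others near these arms were also called lower in both comparisons, with 2 exceptions. miR-28a-5p missed the threshold in quercetin plus LPS against LPS (edgeR adjusted p = 0.0508), and miR-181b-5p in quercetin against control (edgeR adjusted p = 0.0984). These likenesses include the difference between the groups and the shared scaling. After group means were subtracted, r was 0.81 for miR-34b-3p with miR-132-3p. For miR-34c-3p it was 0.57 with miR-664-5p, 0.49 with miR-132-3p and 0.40 with miR-342-3p.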

How the data were processed

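Small RNA libraries were made from total RNA (miRNeasy, TruSeq Small RNA) of 16 cultures, 4 in each of 4 groups. Libraries are numbered 1 to 4 from the titles, where WT with the number recurs in each group. Nothing in the labels says whether a number is 1 animal, so p-values measure the spread between these libraries. Per the submitters' processing notes, cutadapt and genome build mm9 were used; aligner, counter and annotation are not given in the sources used here. The values are whole-number read counts per mature miRNA, as deposited by the authors, with no normalization. Of 1377 names, 4 stood on 2 rows and were summed, 1 row held text, and 4 rows were left out because 2 neighbouring pairs appeared exchanged; no row of a member was among them. The closest pair of libraries within a group had a chi-square of 205.31 per degree of freedom, so none was taken as a repeat of another in its group.

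Counts were tested in R 4.3.3 with edgeR 4.0.16 (filterByExpr, TMM, quasi-likelihood, 1 coefficient per group over all 16 libraries), with Benjamini-Hochberg adjustment over the 568 miRNAs tested and a threshold of 0.05. The SE of an edgeR log2 fold change was derived from the test, as its absolute value divided by the square root of the quasi-likelihood F statistic. Alternatives used other scalings, no filter, DESeq2 1.42.0, limma-voom 3.58.1, fits of the 2 groups compared, a block on the library number and fits without a library. Ratios used log2 of counts plus 0.5 and two-sided exact permutation tests; shares and levels carry the SD over 4 libraries. The edgeR script was checked on simulated data. Log2 CPM for likeness used a prior count of 2.

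The text names all members, the miRNAs with the miR-34a-5p seed, listed p53-linked miRNAs and, for each member, the 3 other miRNAs with the highest r; marker lists are given as counts and sums. The members and lists were chosen with earlier results of these data known. Mature sequences and hairpin positions come from RefSeq on GRCm38.p6, and the genes that the hairpins lie in from GENCODE M21.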

Additional observations from a re-analysis of the deposited data

Results flagged for a closer look

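Of 56 groups of 4 values screened (levels of the members and miR-449 arms, and log2 ratios), 8 had a library far from the other 3 by Dixon's 95% criterion; chance flags about 1 group in 20. In the quercetin group, miR-34c-3p was high in library 2 (5.4427 CPM), miR-449c-5p was high in library 2 (1.9887 CPM), and the log2 ratio of miR-34b-5p to miR-34c-5p was high in library 4 (-4.3991). In the LPS group, miR-34a-5p was low in library 3 (392.47 CPM). In the control group, miR-34a-3p was low in library 2 (4.2089 CPM), miR-34c-3p was high in library 3 (14.068 CPM), miR-449c-5p was low in library 3 (1.7585 CPM), and the log2 arm ratio of miR-34b was low in library 2 (-1.303). Control 3 appears for both miR-34c-3p and miR-449c-5p, and it is also among the 4 libraries highest on the second component.

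Neither difference of the miR-34c arm ratio with quercetin passed its test. With libraries matched by number, the 5p share was higher in all 4 quercetin plus LPS libraries than in their LPS partners and lower in all 4 quercetin libraries than in their control partners. The log2 effect with LPS minus that without was 0.75487; this difference was not tested, and the labels do not say that equal numbers mark 1 animal.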

How the results depend on the processing

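Over the alternatives, every log2 fold change called for a member or miR-449c-5p stayed negative. These 8 called results were refitted 176 times in all; the call was kept in 101 fits and lost in 75. Of the results not called, miR-34b-5p gained a call in 1 fit. The number of members called in quercetin against control, 3, was 0 with upper quartile scaling, 1 with library size alone, 1 with no low-count filter, and 0 without the library highest on the second component in each group (4 libraries, chosen after seeing the data). It was 0 to 3 when a library or library number was left out. In quercetin plus LPS against LPS, also 3, it was 1 under those 4 settings and 1 with only the 2 groups fitted, and 1 to 2 when a library or number was left out. There, miR-34c-5p also lost its call with DESeq2 size factors in edgeR (edgeR adjusted p = 0.0623). Counts over all miRNAs in quercetin against control were 45 without the 4 libraries and 44 to 76 leaving out a library or a number (54 to 76 for single libraries), and in quercetin plus LPS against LPS 70 with only the 2 groups fitted and 56 to 133 leaving out a library or a number (80 to 133 for single libraries). In LPS against control they were 1 with library size alone, 6 with DESeq2, 0 without the 4 libraries and 0 to 2 leaving out a library or a number. Those in quercetin plus LPS against quercetin were 4 with DESeq2 and 1 to 7 leaving out a library or a number. The difference of the quercetin effects gave 0 throughout the fits that left out a library. The cause of these shifts was not tested. Leaving out a library left fewer to fit and also moved the median log2 fold change of all miRNAs. In quercetin plus LPS against LPS that median was -0.13 in the main fit and between -0.06 and 0.08 without a single library. Calls higher against lower were 39 and 51 in quercetin against control, and 48 and 29 with upper quartile scaling. In quercetin plus LPS against LPS they were 49 and 81, against 67 and 66 with DESeq2 size factors, 71 and 54 with upper quartile scaling and 75 and 50 with library size alone. Without scaling, miR-34a-5p averaged 566 CPM in quercetin and miR-34c-3p 8.85 CPM in LPS.

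Same-numbered libraries share a title prefix, WT with the number, across the groups. Apart from that and the age of number 4, the labels name nothing that same-numbered libraries share. Their deviations from group means had a mean r of 0.14 (-0.47 to 0.65, 24 pairs), against -0.04 for other pairs. With the number as a replicate block, 92 miRNAs were called in quercetin against control and 144 in quercetin plus LPS against LPS, with the same 3 members in each. miR-34a-3p, miR-34c-3p, miR-449a-5p and miR-449c-5p had at most 130 reads in any library, which limits their precision.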
